A study of Mus musculus with 20 samples.

Results

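Chemokine and chemokine receptor genes were described in 20 mouse RNA-sequencing libraries. They were taken by symbol, as the Ccl, Cxcl, Cx3cl and Xcl ligands and the Ccr, Cxcr, Cx3cr, Xcr and Ackr receptors, and kept where at least 5 of the 20 count files held 10 or more counts. Of 25700 genes in the files, 61 had such a symbol and 44 passed, 30 ligands (17 CC, 11 CXC, Cx3cl1 and Xcl1) and 14 receptors (6 CC, 3 CXC, Cx3cr1, Xcr1 and 3 atypical). The libraries formed 4 groups of 5: oxalate mice on alkali therapy, untreated oxalate mice, control mice on alkali therapy and untreated control mice. Its series text describes crystal nephropathy, kidney damage by crystals, and bicarbonate as the alkali. Both alkali-treated groups are titled late, a term left without explanation, so alkali and whatever late stands for cannot be told apart. Strain, sex, age, tissue, oxalate dose and time are not given in the labels, nor is it said that each library came from its own animal, so p-values measure the spread between these libraries, which may be technical.

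Chemokines are small secreted proteins that guide leukocytes along a gradient, and they are sorted into CC, CXC, CX3C and XC families by the spacing of their leading cysteines. They act through receptors coupled to G proteins, while atypical receptors bind chemokines without that signal and remove or carry them. In the kidney, Ccl2 is known for drawing monocytes through Ccr2, the Cxcl1, Cxcl2 and Cxcl5 group for drawing neutrophils through Cxcr2, and Cxcl9 and Cxcl10 for drawing T cells through Cxcr3.

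Total counts per library ranged from 25547840 to 39550689. All 10 kidney tissue markers were present, with Umod, the tubule's uromodulin, between 1920 and 3070 CPM in every library (CPM, counts scaled to the library total with TMM factors). Their summed level, however, was 22500 to 42400 CPM in alkali-treated oxalate, 18400 to 41200 in untreated oxalate, 44200 to 50900 in alkali-treated control and 48400 to 54400 in untreated control libraries, so that both oxalate groups lay wholly below their controls. On the leading principal component, which held 64.5% of the variance, the alkali-treated oxalate libraries spread from -17.0 (library 2) to 69.3 (library 33), and untreated oxalate library 40 stood highest at 102. Adipoq, an adipocyte gene, exceeded 1 CPM in 6 libraries (33 of alkali-treated oxalate, 32 of untreated oxalate, 1 and 4 of alkali-treated control, 26 and 9 of untreated control). Summed CPM of 14 macrophage and monocyte markers ran from 302 to 938 in alkali-treated oxalate, 740 to 2900 in untreated oxalate, 151 to 200 in alkali-treated control and 150 to 197 in untreated control libraries. In such bulk RNA, fewer cells of a type and less RNA per cell cannot be told apart.

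The promoters of Cxcl1, Cxcl2, Cxcl10 and Cxcl9 are shown because Cxcl1, Cxcl2 and Cxcl10 were called lower with alkali in oxalate mice and Cxcl9, the neighbour of Cxcl10, was not. Each stretch runs 5′ to 3′ on the gene's strand and comes from the RefSeq promoter table (GRCm38.p6), which matched 33 of the 44 genes. Capitals mark GGNNNTTCC, letters within the binding site of the inflammatory transcription factor NF-kB, and in Cxcl10 also AAANNGAAA, letters within the interferon-stimulated response element, on either strand.
Cxcl1: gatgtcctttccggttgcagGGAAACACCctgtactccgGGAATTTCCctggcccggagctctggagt
Cxcl2: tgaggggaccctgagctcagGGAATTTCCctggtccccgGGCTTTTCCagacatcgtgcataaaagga
Cxcl10: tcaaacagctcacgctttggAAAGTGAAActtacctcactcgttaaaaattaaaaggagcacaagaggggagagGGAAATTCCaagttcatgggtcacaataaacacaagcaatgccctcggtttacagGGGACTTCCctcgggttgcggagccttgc
Cxcl9: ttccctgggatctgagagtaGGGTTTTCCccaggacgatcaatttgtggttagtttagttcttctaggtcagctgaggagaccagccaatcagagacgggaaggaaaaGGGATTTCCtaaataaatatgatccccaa
The stretches lie at chr5:90891136-90891203 (plus strand) for Cxcl1, chr5:90903783-90903850 (plus strand) for Cxcl2, chr5:92348964-92349121 (minus strand) for Cxcl10 and chr5:92328093-92328229 (minus strand) for Cxcl9. The NF-kB letters began 89 and 70 bases before the start of Cxcl1, 96 and 77 before that of Cxcl2, 158 and 103 before that of Cxcl10 and 130 and 42 before that of Cxcl9. They were found in 18.5% of all 32851 promoters of the same 300 bases and in 11 of the 33 matched genes, 4 of them (Ccl9, Cxcl1, Cxcl2 and Cxcl10) among the 7 matched genes called lower with alkali. The interferon letters were found in 10.6% of all promoters and in 5 of the 33 (Ccl19, Ccl28, Ccr1, Cxcl10 and Cxcl14). A match describes the letters in this window and does not show a bound site.

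Without alkali, 25 of the 30 ligand genes and 13 of the 14 receptor genes were higher in oxalate mice, and none was lower. This comparison asked what crystal nephropathy changed in untreated mice. The largest fitted changes were those of the neutrophil attractants Cxcl5 and Cxcl2, the T cell attractant Ccl17 and the mucosal chemokine Cxcl17, whose untreated controls were near 0. The 6 genes not called were Ccl25, Ccl27a, Ccl28, Cxcl11, Cxcl12 and Ackr3. Calls are those with an adjusted p (Benjamini-Hochberg, over 15430 genes) under 0.05 in edgeR's quasi-likelihood test, and every change given here is a log2 fold change ± SE with n = 5 libraries per group. Of all genes 49.4% were called, 26.4% higher and 23.1% lower, and the median change was 2.26 for the 44 genes, beside -0.00 for all genes. Under total-count scaling 85.1% of the called genes were higher, beside 53.3% here, and the median of all genes moved to 0.30. The count rule favours the result for the chemokine genes. Ccl4, Ccl17, Ccl20, Ccr4, Ccr9, Cxcl2, Cxcl5, Cxcl13, Cxcl17 and Xcl1 reached 10 counts in no control file and passed only through oxalate files, so their difference was fixed by the choice. When the 2 groups were fitted alone 33 of the 38 were called, and the other 5 (Ccl19, Ccr4, Cxcl13, Xcl1 and Ackr4) had too few counts there to be tested. Of the 34 genes that reached the minimum in a control file, 28 were called higher. Among the 34, Ccl3, Ccl8, Ccl11, Ccl12, Ccl19, Ccr1 and Ackr4 reached it in alkali-treated control files only, not in untreated ones. All of these were called higher, and the rule favoured them in this comparison too. In 24 of the 34 all untreated oxalate libraries lay above all untreated control libraries. The share of all genes so separated was not counted.

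In oxalate mice, 11 of the 44 genes were lower with alkali and none was higher. They were the ligands Ccl2, Ccl3, Ccl5, Ccl6, Ccl7, Ccl9, Cxcl1, Cxcl2 and Cxcl10 and the receptors Ccr7 and Cxcr4, and all 11 were among those higher in oxalate mice without alkali. This comparison addressed what alkali therapy changed in diseased mice. Ccr1, Ccr2 and Cx3cr1, receptors of monocytes and macrophages, were not called. Of all genes 4.08% were called, 2.33% lower and 1.76% higher, and the median change was -0.45 for the 44 genes, beside 0.01 for all genes. In 7 of the 11 (Ccl2, Ccl3, Ccl5, Ccl7, Cxcl1, Cxcl2 and Cxcl10) all alkali-treated oxalate libraries lay below all untreated ones. The 11 were already picked by a low p, and the share of all genes so separated was not counted. The 11 calls rest on the spread shared by all 4 groups. When the 10 oxalate libraries were fitted by themselves, 0 of the 44 were called (adjusted p of the 11 between 0.052 and 0.196). Calls over all genes fell there too, to 15 higher and 14 lower of 15314, beside 271 and 359 of 15430 in the main fit. Leaving out 1 library gave between 2 calls (without untreated oxalate library 12) and 12 (without untreated oxalate library 32). Of all genes, 92 were called lower without library 12 and 718 without library 32. Cxcl2 and Cxcl10 were called under each of the 20 omissions. Total-count scaling ended the calls of Ccl3, Ccl5, Ccl7, Ccr7 and Cxcr4 (adjusted p between 0.0521 and 0.0689), and with no filter on low counts those of Ccl5, Ccl9, Ccr7 and Cxcr4 were lost (adjusted p between 0.0554 and 0.0661).

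On alkali, 32 of the 44 genes were higher in oxalate than in control mice, 21 ligands and 11 receptors, and none was lower. The question was whether the difference of diseased from control mice was still present under treatment. All 32 were among the 38 called without alkali, and the 6 no longer called were Cxcl1, Cxcl10, Ccl11, Ccl19, Cxcr4 and Ackr4. Of all genes 40.4% were called, 23.4% higher and 17.1% lower, and the median change was 1.58 for the 44 genes with Ccr4 at its lower bound, beside 0.02 for all genes. Of the 32, the 10 genes that passed the count rule only through oxalate files were fixed by the choice. Of the other 34 genes, 22 were called higher, with a median change of 1.31. Among them Ccl7 reached the minimum in an untreated control file but in no alkali-treated one. In 16 of the 34 all alkali-treated oxalate libraries lay above all alkali-treated control libraries. The share of all genes so separated was not counted here either. The fit of the 2 groups alone gave 26 calls, and 6 of the 32 (Ccl4, Ccr4, Ccr9, Cxcl5, Cxcl13 and Xcl1) had too few counts there to be tested. Under total-count scaling 85.6% of the called genes were higher, beside 57.8% here. In control mice alkali changed none of the 44 by edgeR, with 1 (Ccl17) at an unadjusted p under 0.05, and 0% of all genes were called, while 389 had an unadjusted p under 0.05. The interaction, which asks whether the change with alkali differed between oxalate and control mice, called none of the 44 and 0% of all genes, with 11 of the 44 and 1429 of all genes at an unadjusted p under 0.05. DESeq2 also called none of the 44 in either. The changes with alkali in oxalate mice were therefore not shown to differ from those in control mice.

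Ligands of the monocyte receptor Ccr2 lie together on chromosome 11 (GENCODE M21, GRCm38), where 82035571 to 82116799 holds Ccl2, Ccl7, Ccl11, Ccl12 and Ccl8. Ccl2, the main attractant of monocytes, had 2.62, 4.24, 5.7, 4.62 and 5.14 CPM in alkali-treated oxalate libraries (always in the order 2, 30, 33, 5, 8) and 41.9, 30.7, 10.4, 11.9 and 13.4 CPM in untreated oxalate libraries (12, 3, 32, 39, 40). It had 1.05, 1.01, 0.47, 0.99 and 0.409 CPM in alkali-treated control libraries (1, 27, 37, 4, 7) and 0.677, 3.78, 0.376, 0.649 and 0.603 CPM in untreated control libraries (13, 19, 26, 35, 9). Both oxalate groups lay wholly above their controls, every alkali-treated oxalate library lay below every untreated one, and untreated control library 19 stood above the other controls. Ccl2 was higher by 4.14 ± 0.55 without alkali (adjusted p = 8.65e-06) and by 2.51 ± 0.55 on alkali (adjusted p = 0.00245), and fell by 2.28 ± 0.49 with alkali in oxalate mice (adjusted p = 0.0149). Without untreated control library 19 the change without alkali was 5.23, and without untreated oxalate library 12 the change with alkali was -1.89 and no longer called (adjusted p = 0.0567).

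Ccl7, a second ligand of Ccr2 that also binds Ccr1, had 0.517, 0.555, 1.31, 0.788 and 0.939 CPM in alkali-treated oxalate libraries and 5.73, 3.66, 1.6, 1.59 and 2.06 CPM in untreated oxalate libraries. Alkali-treated control libraries had 0.182, 0.278, 0, 0.22 and 0.112 CPM and untreated control libraries 0.127, 0.356, 0.137, 0.162 and 0 CPM. Libraries 12 and 3 were highest, and no library of 1 oxalate group overlapped the other. The gene was higher by 4.18 ± 0.58 without alkali (adjusted p = 1.36e-05) and by 2.37 ± 0.59 on alkali (adjusted p = 0.00546), and fell by 1.83 ± 0.48 with alkali in oxalate mice (adjusted p = 0.0364). That last call was lost on omitting any 1 of untreated oxalate libraries 12 and 3 and alkali-treated oxalate libraries 2, 30, 5 and 8 (adjusted p between 0.0629 and 0.139).

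Ccl12, another mouse ligand of Ccr2, averaged 1.32 ± 0.879 CPM in alkali-treated oxalate, 1.86 ± 0.738 in untreated oxalate, 0.199 ± 0.161 in alkali-treated control and 0.131 ± 0.0833 in untreated control libraries (SD, n = 5 each). It was higher by 3.81 ± 0.57 without alkali and by 2.72 ± 0.54 on alkali (3.31 without alkali-treated control library 4), and with alkali in oxalate mice its change was -0.50 ± 0.45 (adjusted p = 0.569). Ccl8, a ligand of Ccr8, averaged 2.48 ± 2.12 CPM in alkali-treated oxalate, 5.09 ± 3 in untreated oxalate, 0.166 ± 0.147 in alkali-treated control and 0.167 ± 0.111 in untreated control libraries. It was higher by 4.86 ± 0.69 without alkali and by 3.89 ± 0.69 on alkali (3.26 without alkali-treated oxalate library 33), while the change with alkali was -1.04 ± 0.53 (adjusted p = 0.274, and 0.0239 without the 6 libraries with Adipoq above 1 CPM). Ccl11, the eosinophil attractant eotaxin, stood at 0.581 ± 0.244, 0.689 ± 0.373, 0.356 ± 0.353 and 0.211 ± 0.0864 CPM in alkali-treated oxalate, untreated oxalate, alkali-treated control and untreated control libraries. Its groups overlapped. The call of Ccl11 without alkali (1.68 ± 0.55, adjusted p = 0.0157) was lost without untreated oxalate library 12 (1.38, adjusted p = 0.0554), and its change on alkali (0.72 ± 0.52) was called once alkali-treated control library 4 was left out (adjusted p = 0.0237).

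From 83525778 to 83664683 of the same chromosome lie Ccl5, Ccl9, Ccl6, Ccl3 and Ccl4. Ccl6, a mouse ligand of Ccr1 made by macrophages, had 5.34, 11.1, 24.1, 18.3 and 19 CPM in alkali-treated oxalate libraries and 47, 37.2, 19.7, 29.9 and 76.5 CPM in untreated oxalate libraries. Its levels were 3.34, 2.26, 1.78, 3.55 and 2.2 CPM in alkali-treated control and 2.03, 2.85, 2.33, 2.23 and 2.34 CPM in untreated control libraries. Both oxalate groups lay above their controls, and untreated oxalate library 32 fell within the alkali-treated range. Ccl6 was higher by 4.15 ± 0.39 without alkali (adjusted p = 4.5e-07) and by 2.57 ± 0.37 on alkali (adjusted p = 9.66e-05), and fell by 1.43 ± 0.33 with alkali in oxalate mice (adjusted p = 0.0231). Omitting library 12 or 40 (untreated oxalate) or 30 (alkali-treated oxalate) ended the last of these calls (adjusted p between 0.0593 and 0.0676).

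Ccl9, its close relative and also a ligand of Ccr1, had 5.65, 9.22, 19.6, 18.1 and 16.5 CPM in alkali-treated oxalate libraries and 38.8, 32.1, 18.1, 28.4 and 72.8 CPM in untreated oxalate libraries. In alkali-treated control libraries it had 1.89, 1.67, 1.03, 1.72 and 0.744 CPM, and untreated control libraries 1.31, 2.64, 0.582, 2.11 and 1.54 CPM. As for Ccl6, untreated oxalate library 40 was highest and library 32 fell within the alkali-treated range. Ccl9 was higher by 4.54 ± 0.44 without alkali (adjusted p = 6.03e-07) and by 3.29 ± 0.43 on alkali (adjusted p = 5.42e-05), and fell by 1.46 ± 0.37 with alkali in oxalate mice (adjusted p = 0.0313). Any 1 of untreated oxalate libraries 12 and 40 and alkali-treated oxalate libraries 2, 30 and 8, when omitted, ended that call (adjusted p between 0.0549 and 0.0979).

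Ccl3, a ligand of Ccr1, had 0.103, 0.53, 0.688, 0.679 and 0.443 CPM in alkali-treated oxalate libraries and 1.28, 1.56, 0.874, 1.46 and 3.5 CPM in untreated oxalate libraries. The control libraries had 0.109, 0.208, 0.0626, 0.366 and 0.112 CPM on alkali and 0.0423, 0, 0.137, 0.0406 and 0.188 CPM untreated. On alkali, library 2 of the oxalate group lay within the controls. Ccl3 was higher by 4.33 ± 0.61 without alkali (adjusted p = 1.43e-05) and by 1.51 ± 0.57 on alkali (adjusted p = 0.0394), and fell by 1.82 ± 0.48 with alkali in oxalate mice (adjusted p = 0.0362). The call on alkali was lost in 8 of 20 omissions (control libraries 1, 27, 37 and 7, oxalate libraries 30, 33, 5 and 8, adjusted p up to 0.0985) and the call with alkali in 6 (untreated oxalate libraries 12, 3 and 40, alkali-treated oxalate libraries 2, 30 and 8, adjusted p up to 0.11). Without the 6 libraries with Adipoq above 1 CPM the call on alkali was lost as well (adjusted p = 0.0668), and total-count scaling ended the call with alkali (adjusted p = 0.053).

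Ccl5, which draws T cells and monocytes, had 1.76, 3.11, 4.06, 4.02 and 3.31 CPM in alkali-treated oxalate libraries and 6.01, 4.76, 6.7, 5.32 and 6.15 CPM in untreated oxalate libraries. Its levels were 1.45, 1.28, 1.03, 1.58 and 1.15 CPM in alkali-treated control and 1.31, 1.6, 0.65, 1.54 and 1.85 CPM in untreated control libraries. The groups did not overlap in any of these comparisons except that of the controls with each other. Ccl5 was higher by 2.06 ± 0.24 without alkali (adjusted p = 2.48e-06) and by 1.32 ± 0.24 on alkali (adjusted p = 0.000594), and fell by 0.83 ± 0.23 with alkali in oxalate mice (adjusted p = 0.0447). That call was narrow and held only without untreated control library 26 or 9 or alkali-treated oxalate library 33 or 5, with an adjusted p between 0.0502 and 0.109 without any other. Ccl4, a close relative of Ccl3, averaged 0.642 ± 0.322 CPM in alkali-treated oxalate, 1.15 ± 0.278 in untreated oxalate, 0.205 ± 0.111 in alkali-treated control and 0.207 ± 0.117 in untreated control libraries. Ccl4 was higher by 2.47 ± 0.46 without alkali and by 1.65 ± 0.47 on alkali (adjusted p = 0.0108, and 0.06 without the 6 libraries with Adipoq above 1 CPM), and its change with alkali was -0.83 ± 0.40 (adjusted p = 0.249). As Ccl4 passed the count rule only through oxalate files, its difference from controls was fixed by the choice.

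**Figure D1:**
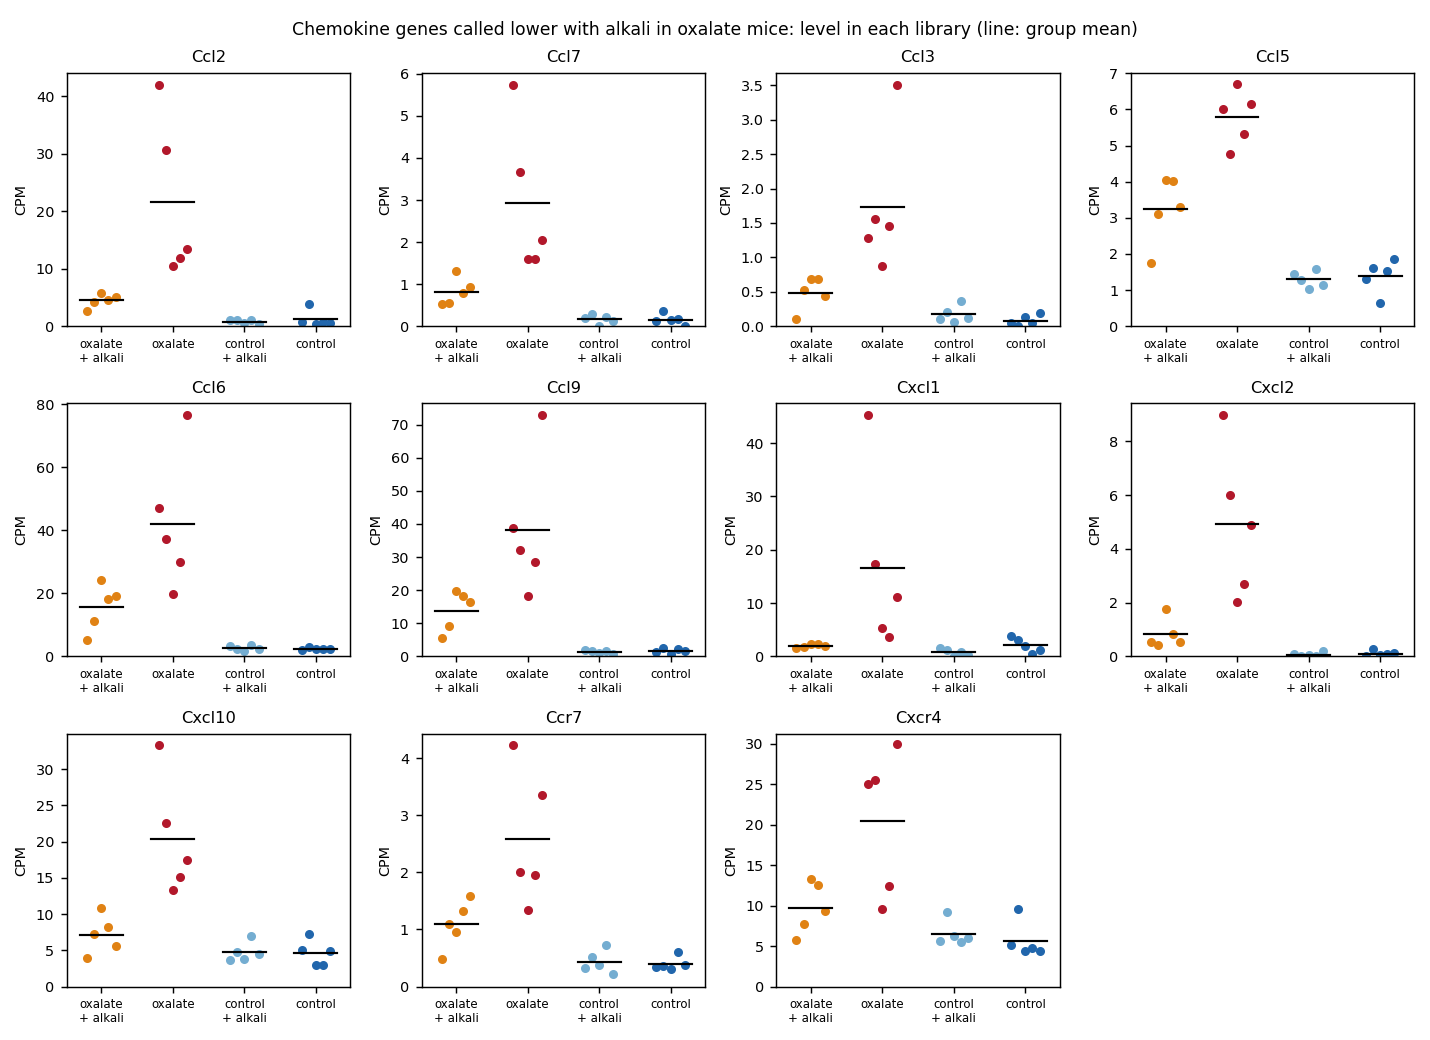
CPM (vertical axes, each from 0) of the 11 genes called lower with alkali in oxalate mice, in alkali-treated oxalate, untreated oxalate, alkali-treated control and untreated control libraries (5 points each, line at the group mean). Ccl2 ran from 2.62 to 5.7 CPM in alkali-treated and 10.4 to 41.9 CPM in untreated oxalate libraries, while those of Ccl6, Ccl9, Ccr7 and Cxcr4 overlap.

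The remaining CC ligands were Ccl17, Ccl22, Ccl20, Ccl19, Ccl28, Ccl25 and Ccl27a. Ccl17, a ligand of Ccr4 made by dendritic cells, had 1.24, 1.31, 2.26, 2.01 and 2.45 CPM in alkali-treated oxalate libraries and 3.31, 1.9, 1.98, 1.92 and 4.37 CPM in untreated oxalate libraries. Alkali-treated control libraries had 0.145, 0.174, 0.25, 0.22 and 0.0744 CPM and untreated control libraries 0.127, 0, 0.0342, 0.122 and 0.0377 CPM. The oxalate groups overlapped each other and lay far above the controls. That difference was fixed by the choice, as Ccl17 passed the count rule only through oxalate files. Ccl17 was higher by 5.38 ± 0.47 without alkali (adjusted p = 3.1e-07) and by 3.38 ± 0.40 on alkali (adjusted p = 2.2e-05), with a change of -0.54 ± 0.32 with alkali in oxalate mice (adjusted p = 0.351). Ccl22, the other Ccr4 ligand, averaged 3.36 ± 1.46 CPM in alkali-treated oxalate, 4.4 ± 2.15 in untreated oxalate, 0.538 ± 0.204 in alkali-treated control and 0.448 ± 0.225 in untreated control libraries. Its changes were 3.29 ± 0.43, 2.64 ± 0.42 and, not called, -0.39 ± 0.37 in the same order.

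Ccl20, which draws lymphocytes that carry Ccr6, ranged from 0.482 to 1.57 CPM in alkali-treated oxalate, 1.26 to 2.89 in untreated oxalate, 0 to 0.174 in alkali-treated control and 0 to 0.162 in untreated control libraries. It was higher by 4.63 ± 0.59 without alkali and by 4.57 ± 0.65 on alkali (6.42 without alkali-treated control library 27), and its change with alkali was -0.86 ± 0.43 (adjusted p = 0.268). As Ccl20 passed the count rule only through oxalate files, its difference from controls was fixed by the choice. Ccr6 missed the count rule, at 0.159 ± 0.0782, 0.231 ± 0.122, 0.0509 ± 0.061 and 0.0535 ± 0.0334 CPM in alkali-treated oxalate, untreated oxalate, alkali-treated control and untreated control libraries. Ccl19, which guides dendritic cells and T cells to lymph nodes through Ccr7, ranged from 0.138 to 0.652 CPM in alkali-treated oxalate, 0.298 to 1.31 in untreated oxalate, 0.0733 to 0.382 in alkali-treated control and 0 to 0.274 in untreated control libraries. Its call without alkali (1.79 ± 0.57, adjusted p = 0.0136) was lost without untreated oxalate library 12 (1.42, adjusted p = 0.0544). Ccl21a and Ccl21b, the other Ccr7 ligands, were listed at 0 in every library, as was Ccl27b. These belong to near-identical gene copies, so their counts are uncertain.

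The CC ligands Ccl28, Ccl25 and Ccl27a were not called in any of the comparisons, with exceptions under other settings. Total-count scaling called Ccl27a higher without alkali (0.38, adjusted p = 0.0362) and on alkali (0.48, adjusted p = 0.0159), and on alkali it was also called without alkali-treated control library 4 (0.33, adjusted p = 0.048). Ccl28, a mucosal ligand of Ccr10, averaged 24.3 ± 18.9 CPM in alkali-treated oxalate, 29.7 ± 18.9 in untreated oxalate, 32.4 ± 17.8 in alkali-treated control and 62.2 ± 25.4 in untreated control libraries. Its change without alkali was -1.07 ± 0.55 (adjusted p = 0.119), and it was called lower when untreated oxalate library 32 was left out (-1.48, adjusted p = 0.0488). Ccl25, the ligand of Ccr9, lay between 7.1 and 12.7 CPM in all libraries, and Ccl27a, a skin-homing ligand of Ccr10, between 4.58 and 7.45 CPM. Their changes without alkali were -0.15 ± 0.14 and 0.07 ± 0.12, and that of Ccl27a on alkali was 0.27 ± 0.12 (adjusted p = 0.0824). Both overlap a gene on the opposite strand (Elavl1 and Il11ra1), and since the strand setting of the counting is not given in the sources used here, their counts are uncertain.

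Cxcl1, Cxcl2 and Cxcl5, the neutrophil attractants that act through Cxcr2, lie on chromosome 5 between 90759360 and 90905938. Cxcl1 had 1.52, 1.67, 2.29, 2.36 and 2.01 CPM in alkali-treated oxalate libraries and 45.2, 17.4, 5.24, 3.7 and 11.1 CPM in untreated oxalate libraries. It had 1.63, 1.22, 0.157, 0.733 and 0.298 CPM in alkali-treated control and 3.77, 3.1, 1.85, 0.406 and 1.13 CPM in untreated control libraries. The alkali-treated oxalate libraries lay within a narrow range below every untreated oxalate library, and untreated oxalate library 39 reached no higher than the untreated controls. Cxcl1 was higher by 3.01 ± 0.64 without alkali (adjusted p = 0.000858), was not called on alkali (1.29 ± 0.68, adjusted p = 0.132) and fell by 3.07 ± 0.64 with alkali in oxalate mice (adjusted p = 0.0129). Untreated oxalate library 12 carried much of this, since without it the change without alkali was 2.19 (adjusted p = 0.00404) and the change with alkali -2.25 (adjusted p = 0.0512). The fit of the 2 groups alone called Cxcl1 on alkali (adjusted p = 0.0444).

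Cxcl2 had 0.551, 0.429, 1.77, 0.815 and 0.547 CPM in alkali-treated oxalate libraries and 8.96, 5.99, 2.04, 2.68 and 4.89 CPM in untreated oxalate libraries. In alkali-treated control libraries it had 0.0726, 0, 0.0313, 0 and 0.186 CPM and untreated control libraries 0, 0.285, 0.0342, 0.0811 and 0.113 CPM. Every oxalate library lay above every control library, and every alkali-treated oxalate library below every untreated one. The difference from controls was fixed by the choice, as Cxcl2 passed the count rule only through oxalate files. Cxcl2 was higher by 5.49 ± 0.66 without alkali (adjusted p = 2.8e-06) and by 3.76 ± 0.74 on alkali (adjusted p = 0.00105), and fell by 2.59 ± 0.51 with alkali in oxalate mice (adjusted p = 0.00947). The changes against the nearly empty controls were 6.32 when untreated control library 19 was omitted and 4.77 when alkali-treated control library 7 was.

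Cxcl5, which epithelial cells also make, had 0.276, 0.353, 2.13, 1.71 and 0.678 CPM in alkali-treated oxalate libraries and 4.31, 3.96, 1.22, 1.52 and 8 CPM in untreated oxalate libraries. The control libraries had 0.0726, 0, 0.125, 0.0366 and 0 CPM on alkali, and of the untreated ones library 26 alone held counts (0.137 CPM). Both oxalate groups lay above their controls and overlapped each other. Here too the difference from controls was fixed by the choice, as Cxcl5 passed the count rule only through oxalate files. Cxcl5 was higher by 6.81 ± 0.91 without alkali (adjusted p = 8.72e-06, and 9.90 without untreated control library 26) and by 4.29 ± 0.88 on alkali (adjusted p = 0.00136, and 5.04 without alkali-treated control library 37). The change of Cxcl5 with alkali was -1.89 ± 0.59 and not called (adjusted p = 0.0718), but it was called by DESeq2 (adjusted p = 0.0499), without untreated oxalate library 32 (0.0313), without alkali-treated oxalate library 33 (0.0329) and without the 6 libraries with Adipoq above 1 CPM (0.0272).

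Their receptors were near the limit of detection. Cxcr2 averaged 0.0341 ± 0.0282 CPM in alkali-treated oxalate, 0.197 ± 0.119 in untreated oxalate, 0.0281 ± 0.0453 in alkali-treated control and 0.0428 ± 0.0956 in untreated control libraries, and Cxcr1, its relative, 0.0791 ± 0.057, 0.408 ± 0.412, 0 and 0 CPM. Both missed the count rule and are given without a test. The neutrophil marker list had a summed level of 3.07 to 9.33 CPM in alkali-treated oxalate, 5.77 to 19 in untreated oxalate, 1.57 to 2.09 in alkali-treated control and 1.44 to 3.53 in untreated control libraries. Of its 11 genes, 5 could be tested and 3 were higher in oxalate mice without alkali, where 26.4% of all genes were called higher. The defining granule and surface genes Camp, Ngp and Ly6g were at or near 0 in every group, while Csf3r, the receptor of granulocyte colony-stimulating factor, averaged 4.11 CPM in alkali-treated oxalate, 7.52 in untreated oxalate, 0.728 in alkali-treated control and 0.823 in untreated control libraries. Their part in the changes of Cxcl1, Cxcl2 and Cxcl5 was not tested.

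Cxcl9, Cxcl10 and Cxcl11, interferon-induced ligands of the T cell receptor Cxcr3, lie on chromosome 5 from 92321347 to 92365485. Cxcl10 had 3.96, 7.32, 10.8, 8.28 and 5.53 CPM in alkali-treated oxalate libraries and 33.4, 22.6, 13.3, 15.1 and 17.5 CPM in untreated oxalate libraries. Alkali-treated control libraries had 3.7, 4.79, 3.82, 7 and 4.43 CPM and untreated control libraries 5.04, 7.31, 3.01, 3.04 and 4.86 CPM. The untreated oxalate libraries stood clear of all others, and the alkali-treated oxalate libraries overlapped the controls. Cxcl10 was higher by 2.13 ± 0.30 without alkali (adjusted p = 1.47e-05), was not called on alkali (0.60 ± 0.29, adjusted p = 0.108) and fell by 1.51 ± 0.29 with alkali in oxalate mice (adjusted p = 0.00814). On alkali it was called when alkali-treated oxalate library 2 was left out (0.74, adjusted p = 0.0381) or when libraries were scaled by total counts (0.83, adjusted p = 0.0465). Cxcl10 overlaps Art3, which lies on the opposite strand, by 133 bases.

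Cxcl9 had 2.2, 5.55, 11.1, 7.39 and 4.09 CPM in alkali-treated oxalate libraries and 7.1, 4.43, 9.14, 7.24 and 9.1 CPM in untreated oxalate libraries. In alkali-treated control libraries it had 3.3, 3.05, 2.57, 4.36 and 4.09 CPM and untreated control libraries 3.98, 2.99, 2.98, 3.08 and 3.96 CPM. The oxalate groups overlapped widely. Cxcl9 was higher by 1.13 ± 0.30 without alkali (adjusted p = 0.00443) and by 0.80 ± 0.30 on alkali (adjusted p = 0.0384), and its change with alkali was -0.29 ± 0.29 (adjusted p = 0.623). The call on alkali was lost in 5 omissions (control libraries 1, 27 and 37, oxalate libraries 33 and 5, adjusted p up to 0.18), with no filter on low counts (0.051), in the fit of the 2 groups alone (0.0813) and without the 6 libraries with Adipoq above 1 CPM (0.233). The difference between the changes of Cxcl9 and Cxcl10 was not tested. Cxcl11, annotated as a polymorphic pseudogene, lay between 0.417 and 1.31 CPM in all libraries and was not called (-0.01 ± 0.29 without alkali).

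Cxcl16 and Cx3cl1 are the membrane-bound chemokines, made by epithelial and endothelial cells. Cxcl16, the ligand of Cxcr6, had 51.7, 91.3, 94.2, 85 and 105 CPM in alkali-treated oxalate libraries and 145, 118, 85.7, 102 and 153 CPM in untreated oxalate libraries. It had 40.9, 38.3, 38.8, 43.7 and 39.3 CPM in alkali-treated control and 37.1, 46.1, 38.5, 43.2 and 36.9 CPM in untreated control libraries. All oxalate libraries lay above all controls. Cxcl16 was higher by 1.58 ± 0.16 without alkali (adjusted p = 7e-07) and by 1.09 ± 0.16 on alkali (adjusted p = 0.000112). Its change with alkali was -0.50 ± 0.16 and not called (adjusted p = 0.0757), but was called by DESeq2 (0.0329), without untreated oxalate library 32 (0.0213) and without the 6 libraries with Adipoq above 1 CPM (0.0431). Zmynd15 overlaps Cxcl16 on the opposite strand by 552 bases.

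Cx3cl1, fractalkine, had 102, 118, 154, 141 and 160 CPM in alkali-treated oxalate libraries and 201, 176, 125, 135 and 186 CPM in untreated oxalate libraries. Alkali-treated control libraries had 76.7, 76, 73.1, 94.5 and 76.8 CPM and untreated control libraries 69.2, 94.1, 73.5, 74.9 and 79.6 CPM. Every oxalate library again lay above every control. Cx3cl1 was higher by 1.07 ± 0.14 without alkali (adjusted p = 6.17e-06) and by 0.77 ± 0.14 on alkali (adjusted p = 0.000554), with a change of -0.29 ± 0.14 with alkali in oxalate mice (adjusted p = 0.246). Xcl1, the lymphocyte ligand of Xcr1, averaged 0.366 ± 0.233 CPM in alkali-treated oxalate, 0.359 ± 0.16 in untreated oxalate, 0.148 ± 0.0696 in alkali-treated control and 0.113 ± 0.034 in untreated control libraries. It was called without alkali (1.64 ± 0.48, adjusted p = 0.00853, and 0.0543 without the 6 libraries with Adipoq above 1 CPM). On alkali (1.30 ± 0.46, adjusted p = 0.0299) the call of Xcl1 was lost in 7 omissions (control libraries 1, 27, 37 and 7, oxalate libraries 30, 33 and 5, adjusted p up to 0.125) and without the 6 libraries with Adipoq above 1 CPM (0.0674). Since Xcl1 passed the count rule only through oxalate files, its difference from controls was fixed by the choice.

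Of the other CXC ligands, Cxcl12 is the ligand of Cxcr4 and Ackr3 that retains and guides progenitor cells and lymphocytes. It had 101, 112, 142, 95.4 and 133 CPM in alkali-treated oxalate libraries and 97.9, 104, 82, 99.4 and 155 CPM in untreated oxalate libraries. In alkali-treated control libraries it had 110, 58.9, 78.1, 105 and 77.6 CPM and untreated control libraries 94.6, 98, 121, 78.9 and 91.6 CPM. All 4 groups overlapped. Cxcl12 changed by 0.15 ± 0.18 without alkali (adjusted p = 0.486) and by 0.44 ± 0.18 on alkali (adjusted p = 0.0518). On alkali Cxcl12 crossed the threshold under total-count scaling (0.66, adjusted p = 0.0216), by DESeq2 (0.0477), without the 6 libraries with Adipoq above 1 CPM (0.0327) and without any 1 of control libraries 1 and 4 on alkali, untreated control library 26, untreated oxalate library 40 and alkali-treated oxalate libraries 2 and 5 (adjusted p between 0.03 and 0.0485).

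Cxcl14, an epithelial chemokine whose receptor is not settled, averaged 29.6 ± 7.6 CPM in alkali-treated oxalate, 38.1 ± 17.6 in untreated oxalate, 16.5 ± 3.08 in alkali-treated control and 16.3 ± 2.8 in untreated control libraries. It was higher by 1.22 ± 0.25 without alkali and by 0.84 ± 0.25 on alkali (adjusted p = 0.0139, and 0.0674 without the 6 libraries with Adipoq above 1 CPM). Cxcl13, the B cell attractant that acts through Cxcr5, ranged from 0.31 to 1.87 CPM in alkali-treated oxalate, 0.262 to 1.44 in untreated oxalate, 0.0733 to 0.327 in alkali-treated control and 0 to 0.178 in untreated control libraries. Cxcl13 was higher by 3.89 ± 0.70 without alkali (5.17 without untreated control library 19) and by 2.56 ± 0.58 on alkali. Cxcr5 missed the count rule, at 0.287 ± 0.0641, 0.19 ± 0.0621, 0.107 ± 0.0597 and 0.202 ± 0.116 CPM in alkali-treated oxalate, untreated oxalate, alkali-treated control and untreated control libraries. Cxcl17, a mucosal chemokine, averaged 1.19 ± 0.64 CPM in alkali-treated oxalate, 1.46 ± 0.413 in untreated oxalate, 0.0136 ± 0.0187 in alkali-treated control and 0.0407 ± 0.0734 in untreated control libraries. It was higher by 5.12 ± 0.65 without alkali (6.80 without untreated control library 13). On alkali the oxalate libraries held 213 counts of Cxcl17 and the controls 2, a ratio of 87 with an exact 95% interval for counting error of 23.8 to 723. As Cxcl13 and Cxcl17 passed the count rule only through oxalate files, their differences from controls were fixed by the choice.

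Receptors of the CC family were higher in oxalate mice for 6 of 6 on alkali and without it, where 23.4% and 26.4% of all genes were called higher. Of these, 2 (Ccr4 and Ccr9) passed the count rule only through oxalate files, so their difference was fixed by the choice. Ccr1 reached 10 counts in 1 alkali-treated control file and in no untreated one. Ccr2, the receptor that inflammatory monocytes follow, had 13.3, 16.3, 39.4, 25.7 and 24.4 CPM in alkali-treated oxalate libraries and 23.6, 15.7, 23.4, 24.1 and 55.1 CPM in untreated oxalate libraries. It had 6.9, 4.51, 5.35, 7.95 and 5.73 CPM in alkali-treated control and 7.07, 4.28, 5.92, 7.46 and 5.35 CPM in untreated control libraries. All oxalate libraries lay above all controls, and the oxalate groups overlapped almost wholly. Ccr2 was higher by 2.24 ± 0.31 without alkali (adjusted p = 1.3e-05) and by 1.97 ± 0.31 on alkali (adjusted p = 0.000181). With alkali in oxalate mice its change was -0.25 ± 0.29 (adjusted p = 0.67), and 0.14 without untreated oxalate library 40.

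Ccr1, the receptor of Ccl3, Ccl6 and Ccl9 on monocytes and neutrophils, had 0.723, 1.09, 2.13, 1.28 and 1.38 CPM in alkali-treated oxalate libraries and 1.73, 2.16, 0.903, 1.55 and 6.04 CPM in untreated oxalate libraries. Its control levels were 0.508, 0.243, 0.188, 0.257 and 0.112 CPM on alkali and 0.254, 0.321, 0.205, 0.365 and 0.188 CPM untreated. Untreated oxalate library 40 stood apart from the other 4 of its group for Ccr1, as it did for Ccr2. Ccr1 was higher by 3.21 ± 0.48 without alkali (adjusted p = 2.93e-05, and 2.51 without library 40) and by 2.32 ± 0.48 on alkali (adjusted p = 0.0015). Its change with alkali in oxalate mice was -0.92 ± 0.41 (adjusted p = 0.208). It was -0.26 without untreated oxalate library 40 (adjusted p = 0.732), and it was called without the 6 libraries with Adipoq above 1 CPM (-1.36, adjusted p = 0.0482).

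Ccr7, which brings mature dendritic cells and naive T cells to lymph nodes, had 0.482, 1.09, 0.95, 1.33 and 1.59 CPM in alkali-treated oxalate libraries and 4.23, 2, 1.34, 1.95 and 3.36 CPM in untreated oxalate libraries. Its levels were 0.327, 0.521, 0.376, 0.733 and 0.223 CPM in alkali-treated control and 0.339, 0.356, 0.308, 0.608 and 0.377 CPM in untreated control libraries. The oxalate groups overlapped by untreated library 32. Ccr7 was higher by 2.69 ± 0.38 without alkali (adjusted p = 1.29e-05) and by 1.32 ± 0.37 on alkali (adjusted p = 0.00997), and fell by 1.24 ± 0.34 with alkali in oxalate mice (adjusted p = 0.0434). The last call was lost in 13 of 20 omissions, with an adjusted p between 0.0505 and 0.148, and held on omitting library 8 (alkali-treated oxalate), 32 or 39 (untreated oxalate), 4 or 7 (alkali-treated control) or 26 or 35 (untreated control).

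Ccr9, the gut-homing receptor of Ccl25, averaged 0.56 ± 0.168 CPM in alkali-treated oxalate, 0.565 ± 0.134 in untreated oxalate, 0.154 ± 0.112 in alkali-treated control and 0.266 ± 0.0259 in untreated control libraries. It was called without alkali (1.09 ± 0.35, adjusted p = 0.0154), except when untreated oxalate library 40 was left out (0.93, adjusted p = 0.0528), and on alkali (1.82 ± 0.38, adjusted p = 0.00153). Ccr9 overlaps Slc6a20a on the opposite strand. Ccr4, the receptor of Ccl17 and Ccl22 on regulatory and helper T cells, was the gene just inside the count rule, with 10 or more counts in 5 files. It held 62 counts in untreated oxalate and 2 in untreated control libraries, a ratio of 23.5 with an exact 95% interval for counting error of 6.24 to 198. On alkali the oxalate libraries held 43 counts of Ccr4 and the controls 0, which makes it at least 11.7-fold higher against a floor of 3 counts over the group (adjusted p = 0.00119). Just outside the rule, with 3 files each, were Ccr8, Cxcr5 and Ackr1.

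**Figure D2:**
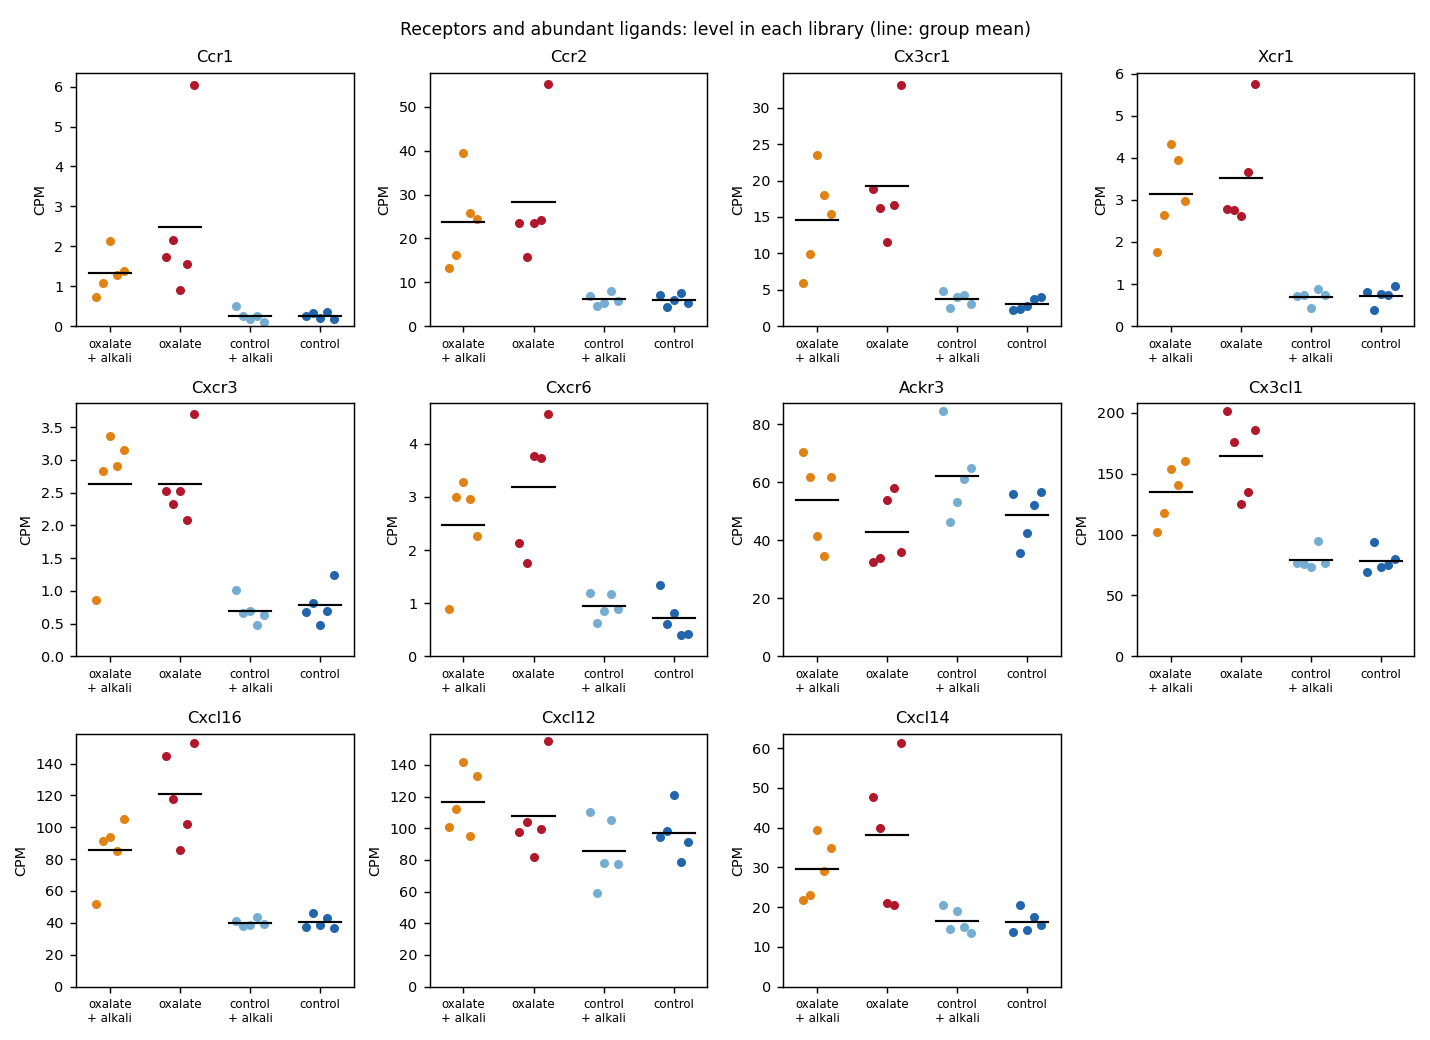
CPM (vertical axes, each from 0) of 7 receptors and 4 abundant ligands in alkali-treated oxalate, untreated oxalate, alkali-treated control and untreated control libraries (5 points each, line at the group mean). The oxalate groups overlap in every panel. For Ccr2 they run from 13.3 to 39.4 CPM with alkali and 15.7 to 55.1 CPM untreated, and untreated oxalate library 40 is the highest point for Ccr1, Ccr2, Cx3cr1, Xcr1, Cxcr3, Cxcr6, Cxcl16, Cxcl12 and Cxcl14.

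Cx3cr1, the fractalkine receptor of resident macrophages and patrolling monocytes, had 5.96, 9.9, 23.5, 18 and 15.4 CPM in alkali-treated oxalate libraries and 18.9, 16.3, 11.5, 16.7 and 33.2 CPM in untreated oxalate libraries. In alkali-treated control libraries it had 4.87, 2.43, 3.94, 4.32 and 3.01 CPM and untreated control libraries 2.24, 2.39, 2.77, 3.69 and 3.96 CPM. No oxalate library fell into the control range. Cx3cr1 was higher by 2.68 ± 0.33 without alkali (adjusted p = 3.88e-06) and by 1.97 ± 0.32 on alkali (adjusted p = 0.000256), with a change of -0.41 ± 0.30 with alkali in oxalate mice (adjusted p = 0.47). Xcr1, which marks cross-presenting dendritic cells, had 1.76, 2.65, 4.32, 3.94 and 2.97 CPM in alkali-treated oxalate libraries and 2.78, 2.76, 2.62, 3.67 and 5.74 CPM in untreated oxalate libraries. Its control levels were 0.726, 0.729, 0.438, 0.88 and 0.744 CPM on alkali and 0.804, 0.392, 0.753, 0.73 and 0.942 CPM untreated. Again the oxalate groups overlapped each other and neither overlapped the controls. Xcr1 was higher by 2.28 ± 0.29 without alkali (adjusted p = 5.42e-06) and by 2.15 ± 0.29 on alkali (adjusted p = 7.05e-05), with a change of -0.17 ± 0.26 with alkali in oxalate mice (adjusted p = 0.764).

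The CXC receptors with enough counts were Cxcr4, Cxcr3 and Cxcr6. Cxcr4, the Cxcl12 receptor of most leukocytes, had 5.75, 7.75, 13.3, 12.5 and 9.33 CPM in alkali-treated oxalate libraries and 25, 25.5, 9.58, 12.4 and 30 CPM in untreated oxalate libraries. It had 5.66, 9.23, 6.2, 5.57 and 5.96 CPM in alkali-treated control and 5.16, 9.62, 4.38, 4.75 and 4.37 CPM in untreated control libraries. Untreated oxalate libraries 32 and 39 lay among the alkali-treated ones, and control libraries 27 and 19 stood above the other controls. Cxcr4 was higher by 1.86 ± 0.31 without alkali (adjusted p = 8.31e-05), was not called on alkali (0.58 ± 0.30, adjusted p = 0.13) and fell by 1.08 ± 0.30 with alkali in oxalate mice (adjusted p = 0.0453). This call was lost in 14 of 20 omissions, with an adjusted p between 0.0507 and 0.121, and held on omitting library 33 or 5 (alkali-treated oxalate), 32 or 39 (untreated oxalate), 27 (alkali-treated control) or 19 (untreated control).

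Cxcr3, the T cell receptor of Cxcl9 and Cxcl10, had 0.861, 2.83, 3.37, 2.91 and 3.15 CPM in alkali-treated oxalate libraries and 2.53, 2.33, 2.53, 2.08 and 3.7 CPM in untreated oxalate libraries. Its levels were 1.02, 0.66, 0.689, 0.476 and 0.633 CPM in alkali-treated control and 0.677, 0.82, 0.479, 0.69 and 1.24 CPM in untreated control libraries. Alkali-treated oxalate library 2 stood alone within the control range. Cxcr3 was higher by 1.75 ± 0.32 without alkali (adjusted p = 0.000191) and by 1.91 ± 0.32 on alkali (adjusted p = 0.000286), with a change of -0.01 ± 0.29 with alkali in oxalate mice (adjusted p = 0.993). Cxcr6, the Cxcl16 receptor of resident T cells and natural killer T cells, had 0.896, 3, 3.27, 2.96 and 2.27 CPM in alkali-treated oxalate libraries and 2.14, 1.76, 3.76, 3.74 and 4.55 CPM in untreated oxalate libraries. The controls had 1.2, 0.625, 0.845, 1.17 and 0.893 CPM on alkali and 1.35, 0.606, 0.821, 0.406 and 0.414 CPM untreated. Library 2 was again low. Cxcr6 was higher by 2.15 ± 0.37 without alkali (adjusted p = 0.000126) and by 1.39 ± 0.36 on alkali (adjusted p = 0.00677), with a change of -0.36 ± 0.34 with alkali in oxalate mice (adjusted p = 0.59).

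Among the atypical receptors, Ackr3, which takes up Cxcl12, had 70.4, 61.8, 41.5, 34.5 and 62 CPM in alkali-treated oxalate libraries and 32.5, 33.9, 53.9, 58.1 and 36 CPM in untreated oxalate libraries. Alkali-treated control libraries had 84.6, 46.2, 53.3, 61 and 65.1 CPM and untreated control libraries 56, 35.5, 42.6, 52.2 and 56.6 CPM. All groups overlapped, and no change of Ackr3 was called (-0.18 ± 0.21 without alkali, -0.20 ± 0.21 on alkali and 0.33 ± 0.21 with alkali in oxalate mice). Ackr2, which clears inflammatory CC chemokines, averaged 0.714 ± 0.159 CPM in alkali-treated oxalate, 0.755 ± 0.228 in untreated oxalate, 0.37 ± 0.0905 in alkali-treated control and 0.256 ± 0.12 in untreated control libraries. It was higher by 1.55 ± 0.32 without alkali and by 0.94 ± 0.31 on alkali (adjusted p = 0.0206). The call of Ackr2 on alkali was lost without alkali-treated control library 27 (0.0573) or alkali-treated oxalate library 5 (0.0587) and without the 6 libraries with Adipoq above 1 CPM (0.102). Ackr4, which scavenges Ccl19 and Ccl25, averaged 0.324 ± 0.0865, 0.351 ± 0.137, 0.262 ± 0.14 and 0.181 ± 0.0594 CPM in alkali-treated oxalate, untreated oxalate, alkali-treated control and untreated control libraries. Its call without alkali (0.93 ± 0.38, adjusted p = 0.0484) was the weakest of the 38, since it was lost by DESeq2 (0.0867), with no filter on low counts (0.0874), without the 6 libraries with Adipoq above 1 CPM (0.0948) and in 15 of 20 omissions (adjusted p between 0.0511 and 0.153). It held without alkali-treated oxalate library 33, untreated oxalate library 3 or alkali-treated control library 1, 27 or 37. Acad11, which overlaps Ackr4 on the opposite strand, held 148884 counts against 177 of Ackr4.

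Levels of different genes were set beside each other per length, as RPKM (CPM per kilobase of annotated exons). Cx3cl1 led in every group, at 34.4 ± 6.24 RPKM in alkali-treated oxalate, 41.9 ± 8.41 in untreated oxalate, 20.2 ± 2.18 in alkali-treated control and 19.9 ± 2.44 in untreated control libraries (SD, n = 5 each). In untreated oxalate libraries Cxcl16 (40 ± 9.38 RPKM), Ccl6 (23.4 ± 12.1), Cxcl14 (20.9 ± 9.62) and Ccl2 (19 ± 12.3) followed, and the ranges of mean ± SD of neighbours in this order overlapped. In untreated control libraries Ackr3 (14.5 ± 2.75 RPKM), Cxcl16 (13.4 ± 1.35), Ccl28 (12.8 ± 5.23) and Cxcl12 (11.8 ± 1.86) came after Cx3cl1 and did not differ from each other beyond their spread, and Ccl6 stood at 1.31 ± 0.169. The order in alkali-treated oxalate libraries was Cx3cl1, Cxcl16 (28.3 ± 6.69 RPKM), Cxcl14 (16.2 ± 4.16), Ackr3 (16.1 ± 4.55) and Cxcl12 (14.3 ± 2.46), with Ccl6 at 8.67 ± 4.1 and Ccl2 at 3.92 ± 1.03. The summed level of the 30 ligands was 478 ± 75.9 CPM in alkali-treated oxalate, 663 ± 163 in untreated oxalate, 288 ± 26.9 in alkali-treated control and 329 ± 16.4 in untreated control libraries. That of the 14 receptors was 122 ± 16.5, 138 ± 35.9, 83.8 ± 15.8 and 68.4 ± 9.27 CPM in the same order.

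**Figure D3:**
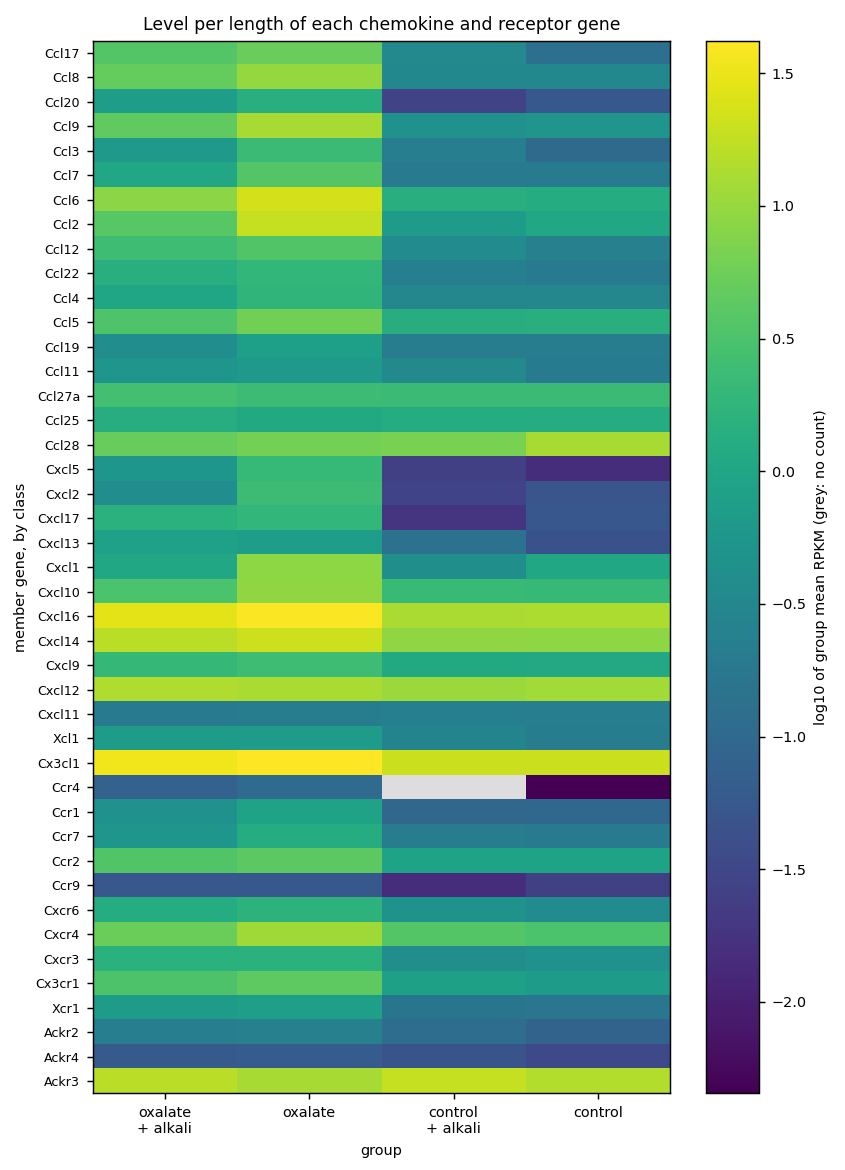
Group mean level per length (colour, log10 of RPKM) of 43 of the 44 genes (rows, by class and then by change without alkali) in the 4 groups (columns). Cx3cl1 is brightest in each column (41.9 RPKM in untreated oxalate and 19.9 in untreated control libraries), and the 1 grey cell is Ccr4 in alkali-treated controls, which held no count.

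Ligands and receptors are given side by side, and the comparisons share groups. Without alkali Ccl2, Ccl7 and Ccl12 were higher by 4.14, 4.18 and 3.81 and their receptor Ccr2 by 2.24. With alkali in oxalate mice Ccl2 and Ccl7 fell by 2.28 and 1.83, while the values of Ccl12 and Ccr2 were -0.50 and -0.25 and not called. Of Cxcl12 and its receptor, Cxcr4 was called without alkali and with alkali in oxalate mice (1.86 and -1.08) and Cxcl12 in neither (0.15 and 0.12). Cx3cl1 and Cx3cr1 (1.07 and 2.68), Cxcl16 and Cxcr6 (1.58 and 2.15) and Xcl1 and Xcr1 (1.64 and 2.28) were called together without alkali and on alkali, and none of the 6 with alkali in oxalate mice. Of all genes 26.4% were called higher without alkali and 23.4% on alkali. Because Xcl1 passed the count rule only through oxalate files, its difference from controls was fixed by the choice. Its call on alkali was also lost on omitting some single libraries. Differences between a ligand and its receptor were not tested. By position, the 10 Ccl genes of chromosome 11 held 6 of the 11 genes lower with alkali. The 7 Cxcl genes of chromosome 5 held 3, and of all genes 2.33% were called lower. In the fit of the 2 groups alone 0 of the 11 were called.

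Genes that carry the chemokine signal onward, or that arrest leukocytes on vessels, were counted on a list of 40 outside the symbol rule. The list also held the chemokines Pf4 and Ppbp, whose symbols the rule misses, and Ccrl2, Cmklr1, Rarres2 and Dpp4. Of the 40 genes 31 were higher and 2 (Gnai1 and Ptk2b) lower in oxalate mice without alkali, beside 26.4% and 23.1% of all genes. On alkali 30 were higher and 2 lower, beside 23.4% and 17.1% of all genes. With alkali in oxalate mice 0 were higher and 5 lower, beside 1.76% and 2.33% of all genes. Vcam1, the adhesion molecule that leukocyte integrins bind, was higher by 3.90 ± 0.28 without alkali (adjusted p = 1.41e-07) and fell by 1.42 ± 0.25 with alkali in oxalate mice (adjusted p = 0.00522). Rgs1, a brake on G protein signals in lymphocytes, was higher by 5.54 ± 0.63 and fell by 2.42 ± 0.50 (adjusted p = 0.0125). Itgb2, the shared chain of leukocyte integrins, fell by 1.59 ± 0.39, Rarres2, the precursor of the attractant chemerin, by 0.76 ± 0.12 and Icam1, another integrin ligand, by 0.73 ± 0.20. The median change of the list was 1.65 without alkali, 1.32 on alkali and -0.44 with alkali in oxalate mice.

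Macrophage, T and NK cell and dendritic cell markers were mostly higher in oxalate mice, as the chemokine genes were, while kidney markers went both ways. Of all genes, 26.4% were called higher and 23.1% lower without alkali and 23.4% and 17.1% on alkali. With alkali in oxalate mice 1.76% were higher and 2.33% lower. Of the 10 kidney markers, 4 genes of the proximal tubule (Kap, Lrp2, Cubn and Slc34a1) were lower and 2 higher in oxalate mice both without and on alkali, and none was called with alkali in oxalate mice. Of 14 macrophage and monocyte markers, 13 were higher without alkali and 12 on alkali, and 4 (Plac8, Cd14, Lyz2 and Itgam) were lower with alkali in oxalate mice. Lyz2, the macrophage lysozyme, averaged 314 CPM in alkali-treated oxalate, 956 in untreated oxalate, 19.2 in alkali-treated control and 20.8 in untreated control libraries. Of 12 T and NK cell markers tested, 11 were higher without alkali and on alkali and 1 (Il7r) was lower with alkali, and of 8 dendritic cell markers 7, 7 and 1 (Itgax). B and plasma cell markers were higher for 3 of 8 without alkali and 4 of 8 on alkali, and none was lower with alkali. Summed T and NK cell marker levels were 12.9, 31.6, 47.1, 41.2 and 37.8 CPM in alkali-treated oxalate libraries and 60.3, 44.9, 40.6, 47.1 and 119 CPM in untreated oxalate libraries, so library 2 was lowest and library 40 highest here too. Il7r was a large part of these sums, at 6.93 to 66.3 CPM in untreated oxalate libraries. Gzma and Ncr1 averaged 0.124 and 0.173 CPM there and 0.197 and 0.17 CPM in untreated control libraries. Nkg7 and Klrb1c averaged 1.84 and 0.423 CPM beside 0.68 and 0.221 CPM. Fibroblast markers were higher for 7 of 7 both ways, with none lower with alkali. Endothelial markers were higher for 2 of 8 without alkali, near the share of all genes, and for 7 of 8 on alkali. Of these 8, 1 (Kdr) was higher with alkali in oxalate mice. Lymphatic and lymph node markers were higher for 4 of 5 tested without alkali and 3 on alkali, with 1 (Pdpn) lower with alkali, and the lymph node vessel genes Madcam1 and Glycam1 lay near or at 0 in every library. The part of these cells in the chemokine results was not tested.

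**Figure D4:**
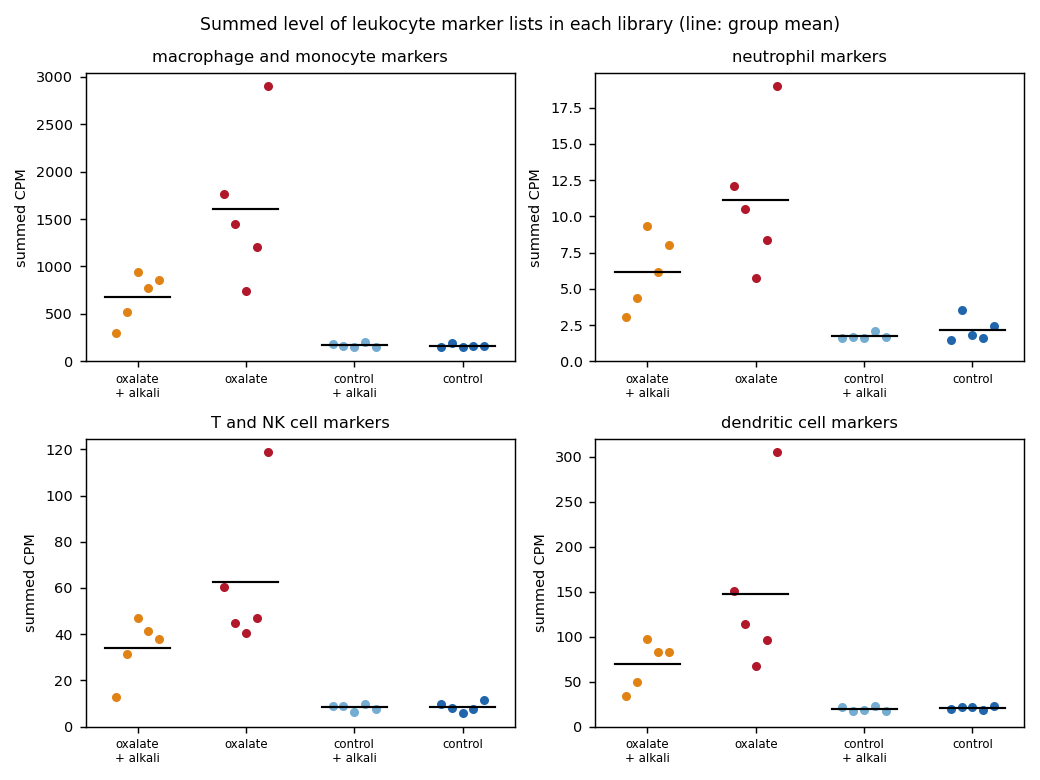
Summed CPM (vertical axes, each from 0) of marker lists for macrophages with monocytes, neutrophils, T with NK cells and dendritic cells in alkali-treated oxalate, untreated oxalate, alkali-treated control and untreated control libraries (5 points each, line at the group mean). Macrophage and monocyte sums run from 302 to 938 CPM in alkali-treated oxalate and 740 to 2900 CPM in untreated oxalate libraries, with library 40 the highest point in all 4 panels.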

How the data were processed

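Stranded poly(A) TruSeq libraries were sequenced, per the labels' protocols. Each deposited file gives the authors' unnormalised counts for Ensembl mouse genes. The submitters' processing notes name featureCounts, STAR 2.7.1, Trimmomatic, bcl2fastq 2.19 and edgeR. They list GRCh38.p5, which is human, and the mouse build used is therefore not known here. Symbols, positions and exon lengths came from GENCODE M21 (GRCm38), which matched 25587 of 25700 identifiers. The strand setting and aligner parameters are not given in the sources used here.

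The software was DESeq2 1.42.0, limma 3.58.1 and edgeR 4.0.16 in R 4.3.3. The filter was filterByExpr with a minimum count of 10 (15430 genes, all 44 chemokine genes among them), and TMM scaling was used. A robust quasi-likelihood model (edgeR) held 4 group means for the 20 libraries, with Benjamini-Hochberg adjustment over all genes. An SE is the log2 fold change over the square root of F. The code was tested on simulated data. Within groups, every pair of libraries had a chi-square per degree of freedom of at least 9.54, so no library was a duplicate of another in its group. Pairs from different groups were not compared.

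Of the 44 genes, 1 enters the counts and is otherwise not reported here. The genes and lists were chosen with earlier results of these data known. Values per library are given for every gene called with alkali, for up to 4 genes per class with the smallest p without alkali among those averaging at least 1 CPM, and for a fixed panel, by range where low. Alternatives were RLE and total-count scaling, other count filters, DESeq2, fits of the compared groups alone, and omission of each library or of the 6 libraries with Adipoq above 1 CPM.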

Additional observations from a re-analysis of the deposited data

Results flagged for a closer look

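Of 171 groups of 5 libraries with a nonzero range, 20 held a library whose gap to the nearest of the others was large against the whole range (Dixon's ratio above 0.71), 17 high and 3 low. By chance about 1 in 20 groups would be flagged if values were normally distributed, and the rate for such low counts with ties at 0 was not measured. Untreated oxalate library 40 accounted for 5, with Ccl12 at 3.16 CPM, Ccl3 at 3.5, Ccr1 at 6.04, Ccr2 at 55.1 and Cxcr3 at 3.7, where the other 4 libraries reached at most 1.69, 1.56, 2.16, 24.1 and 2.53 CPM. Macrophage and monocyte and T and NK cell marker sums were also highest in that library, and their part was not tested. Untreated oxalate library 39 was high for Ackr4 (0.595 CPM). Among alkali-treated oxalate libraries, 33 was high for Cxcl2 (1.77 CPM), 2 low for Cxcr3 (0.861) and 30 low for Ccr9 (0.278). Among alkali-treated controls, library 4 was high for Ccl12 (0.476 CPM) and Cx3cl1 (94.5) and library 27 for Ccl20 (0.174) and Cxcr4 (9.23). Among untreated controls, library 19 was high for Ccl2 (3.78 CPM), Cxcl13 (0.178) and Cxcr4 (9.62), library 13 high for Cxcl17 (0.169) and low for Ccl19 (0), library 26 high for Cxcl5 (0.137) and library 35 high for Ccr7 (0.608).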

How the results depend on the processing

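The 38 and 32 genes called higher in oxalate mice without and on alkali stayed within 1.5 times of these counts under every alternative tried (in the fit of the 2 groups alone 5 and 6 of them had too few counts to be tested), while 1 gene, Ccl28, was called lower without alkali once untreated oxalate library 32 was left out. The 11 genes lower with alkali became 6 under total-count scaling, 7 with no filter on low counts and 0 in the fit of the 2 groups alone, where fewer libraries estimate the spread. Leaving out 1 library gave 2 to 12 (2 without untreated oxalate library 12, 6 without 3, 5 without 40, and 5, 4 and 6 without alkali-treated oxalate library 2, 30 and 8), DESeq2 gave 13 and omission of the 6 libraries with Adipoq above 1 CPM gave 15. Over all genes, 297 were lower with alkali under total-count scaling, 218 with no filter on low counts and 14 in the fit of the 2 groups alone. In the main fit 359 were lower, by DESeq2 717 and without the 6 libraries with Adipoq above 1 CPM 796. Of the single changes, 18 reversed sign, none of them called either way. Total-count scaling gave 0.11 for Ackr3, 0.14 for Ccl25 and 0.29 for Cxcl11 without alkali. Omission of the libraries with Adipoq gave 0.03 for Ackr3 and -0.18 for Ackr4 on alkali, and 0.25 for Ccl28 and -0.04 for Cxcl12 with alkali in oxalate mice. Cxcr3 with alkali in oxalate mice stood at 0.00 in the fit of the 2 groups alone. Leaving out 1 library gave, without alkali, -0.00 (without untreated oxalate library 40) to 0.13 for Ccl27a, -0.06 (without 40) to 0.25 for Cxcl12 and -0.15 to 0.20 for Cxcl11, which was positive without untreated control library 13 (0.20) or untreated oxalate library 3 (0.11) or 39 (0.06). With alkali in oxalate mice it gave -0.51 to 0.14 for Ccr2 and -0.31 to 0.09 for Xcr1, both positive without untreated oxalate library 40, -0.66 to 0.09 for Ccl28, positive without 32, and -0.11 to 0.21 for Cxcr3, positive without 40 (0.16) or alkali-treated oxalate library 2 (0.21). The cause was not tested. Total-count scaling also moved the median of all genes by 0.30 without alkali and 0.24 on alkali, and the share of higher among called genes to 85.1% (from 53.3%) and 85.6% (from 57.8%), so small changes are relative to that shift. No paired analysis was possible because the groups share fewer than 2 replicate numbers. Low counts limit Ccr4, Ccr6, Cxcr2, Cxcr5, Ackr4, Cxcl17 and Xcl1.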
